A study of Mus musculus with 72 samples.

Results

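The 10 genes described here belong to the fibroblast growth factor (FGF) pathway and its output through the kinase ERK. They are the ligands Fgf4, Fgf8, Fgf15 and Fgf17, the receptor Fgfr1, the Sprouty inhibitors Spry2 and Spry4, the phosphatase Dusp6, and the ETS transcription factors Etv4 and Etv5. They were chosen as a list of names, with earlier results of these data known. They are 10 of 45321 genes with a transcript in the deposited count tables, and the 10 of them were among the 18273 genes that passed the filter on low counts.

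The samples were mouse embryonic stem cells (ESCs) with and without Nup133, a scaffold subunit of the nuclear pore, sequenced as polyadenylated RNA on the way to neural progenitors. The comparison asks how the absence of this nucleoporin changes expression during that differentiation. The 2 genotypes at 3 days made 6 groups of 3 biological samples each, and the 4 technical files of a sample were added up. Controls were Nup133+/+ and comprised HM1 (XY, 40 chromosomes) in 2 biological replicates and 1A4 (Sox1gfp/+, XY, 40 chromosomes), a line derived from a blastocyst. Knockout lines 14 and 19 (Nup133-/-, XY, 40 chromosomes, the number of line 19 given as likely) were made from HM1 with CRISPR/Cas9. Knockout line 319 (Nup133merm/merm, Sox1gfp/+) is blastocyst-derived, and its label gives XX with 42 chromosomes and extra copies of chromosomes 8 and 12.

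All lines were kept in serum and LIF on inactivated DR4 mouse fibroblasts, and the fibroblasts were removed by a short plating step before the day 0 collection. The cells then grew in N2B27, a serum-free medium without LIF, until day 2. Time and the loss of serum and LIF came together in that step and cannot be told apart. Day 3 cells had received 1 µM all-trans retinoic acid for 24 h after day 2, so the day 3 samples differ from the day 2 samples in both time and retinoic acid, which cannot be told apart. Each knockout line is a single line and the HM1 replicates share 1 line, so p-values measure the spread between these few lines and cultures. The labels name no animals.

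FGF ligands bind receptor tyrosine kinases at the cell surface, and the receptors activate RAS, RAF, MEK and ERK in turn. ERK then induces transcription of ETS factors, which act as effectors, and of Sprouty proteins and the ERK phosphatase DUSP6, which restrain the same pathway. In mouse ESCs, FGF4 made by the cells themselves is the main activator of ERK and is needed for exit from the naive state, and FGF signals later pattern the neural plate and the primitive streak.

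The depth was 16.5 M to 54.4 M gene counts per sample. Line 19 at day 2 had the lowest depth, and there the medians of single autosomes against HM1, leaving out chromosomes 8, 11 and 12, scattered from -0.31 to 0.22 on the log2 scale. Nup133 itself stood at 180 to 323 CPM (counts scaled to the TMM-adjusted library size) in the 9 control samples and at 14.3 to 37.1 CPM in the 9 knockout samples. The label of line 319 did not match the data on chromosome 8, where its median gene lay below HM1 by a log2 difference of -0.36, -0.49 and -0.47 at days 0, 2 and 3. Line 19 also lay below HM1 there, by -0.20, -0.28 and -0.34. On chromosome 12 the median of line 319 lay above HM1 by 0.38, 0.53 and 0.46. The median gene of chromosome 11 lay below HM1 in the other 4 lines, from -0.13 in line 1A4 at day 3 to -0.40 in line 319 at day 3. Fgfr1 lies on chromosome 8 and Etv4 on chromosome 11, and these shifts are given again beside them. Markers of ESCs, among them Pou5f1, Nanog, Esrrb and Klf4, summed to 4270 to 6030 CPM in the day 0 samples and to 134 to 513 CPM at day 3.

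Promoter entries from RefSeq (GRCm38.p6) were kept for 4 of the 10 genes, and 3 of these are shown as the 250 bases before the transcription start. The count covers the entries kept here and does not show that RefSeq lacks an entry for the other genes. Etv5 was also kept but is not shown. A window of Etv5 overlapped an annotated exon, and another did not. Fgf4 and Spry2 fell together between day 2 and day 3 while Dusp6 did not pass the test. Etv5, Spry4, Fgf15 and Fgf17 fell in that step too, as did Fgf8 in controls, and none of these has a window shown here. The 3 windows thus do not compare falling with steady genes. Capitals mark a CCAAT box (CCAAT, which reads ATTGG when it lies on the other strand) and a GC box (GGGCGG), both searched on either strand. No match overlapped another.
Fgf4, chr7:144861136-144861385, plus strand: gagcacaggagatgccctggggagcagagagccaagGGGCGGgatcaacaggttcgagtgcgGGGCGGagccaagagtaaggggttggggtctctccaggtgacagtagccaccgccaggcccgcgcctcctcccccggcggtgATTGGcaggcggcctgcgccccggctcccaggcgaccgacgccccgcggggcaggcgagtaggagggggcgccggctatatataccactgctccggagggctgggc
Spry2, chr14:105896820-105897069, minus strand: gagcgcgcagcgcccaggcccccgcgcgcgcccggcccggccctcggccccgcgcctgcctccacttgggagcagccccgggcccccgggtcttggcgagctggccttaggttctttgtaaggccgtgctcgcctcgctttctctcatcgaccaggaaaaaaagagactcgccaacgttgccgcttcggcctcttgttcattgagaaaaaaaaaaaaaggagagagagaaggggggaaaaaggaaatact
Dusp6, chr10:99262981-99263230, plus strand: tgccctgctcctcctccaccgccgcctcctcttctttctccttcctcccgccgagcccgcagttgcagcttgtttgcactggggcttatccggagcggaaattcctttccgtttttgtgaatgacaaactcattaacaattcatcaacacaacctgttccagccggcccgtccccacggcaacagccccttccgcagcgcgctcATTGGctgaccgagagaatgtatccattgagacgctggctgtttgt
The Fgf4 window held 1 CCAAT box and 2 GC boxes, the Dusp6 window held 1 CCAAT box, and the Spry2 window held neither. Of 32851 mouse promoter windows of this length, 33.8% held a CCAAT box and 32.7% a GC box. The ETS motif CCGGAAG (6.9% of promoters), the octamer motif ATGCAAAT (1.6%), the AP-1 motif TGANTCA (6.7%) and the cAMP response element TGACGTCA (1.5%) were searched on both strands and matched in none of the 3 windows.

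Between the days, most of these genes moved in the same direction in both genotypes, and the step from day 2 to day 3 held most of it. From day 0 to day 2 in the controls, 4 of the 10 genes passed the test at an adjusted p below 0.05, where 35.2% of all genes tested did. Fgfr1 rose, as did 19.7% of all genes, and Fgf8, Fgf17 and Spry4 fell, as did 15.5%, so the share called was close to that of all genes. From day 2 to day 3 in the controls 8 of the 10 passed, against 21.4% of all genes, with Fgfr1 higher and Fgf4, Fgf8, Fgf15, Fgf17, Spry2, Spry4 and Etv5 lower. Rises made up 12.5% and falls 8.92% of all genes in that step, so falls took a larger share of the 10 genes than of all genes. The median log2 change of the 10 genes was -1.75 in that step and -0.63 in the one before, and the medians of all genes tested were 0.00 and 0.01.

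In the knockout lines, Fgfr1 rose and Fgf17 fell from day 0 to day 2, which makes 2 of the 10 genes where 35.9% of all genes passed (20.8% higher and 15.1% lower). From day 2 to day 3, 7 of the 10 passed and 33.6% of all genes did (17.6% higher and 16.0% lower). Fgfr1 was higher, and Fgf4, Fgf15, Fgf17, Spry2, Spry4 and Etv5 were lower. The median log2 change of the 10 was -0.18 in the first step and -1.91 in the next, against 0.06 and 0.00 for all genes. Both steps share the day 2 samples. The difference in step between the genotypes was tested for each gene, and none of the 10 passed in either step. Of all genes, 0.0219% and 0.0383% passed. At an unadjusted p below 0.05 there was 1 of the 10 genes in each step, near the 7.16% and 8.9% of all genes.

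**Figure D1:**
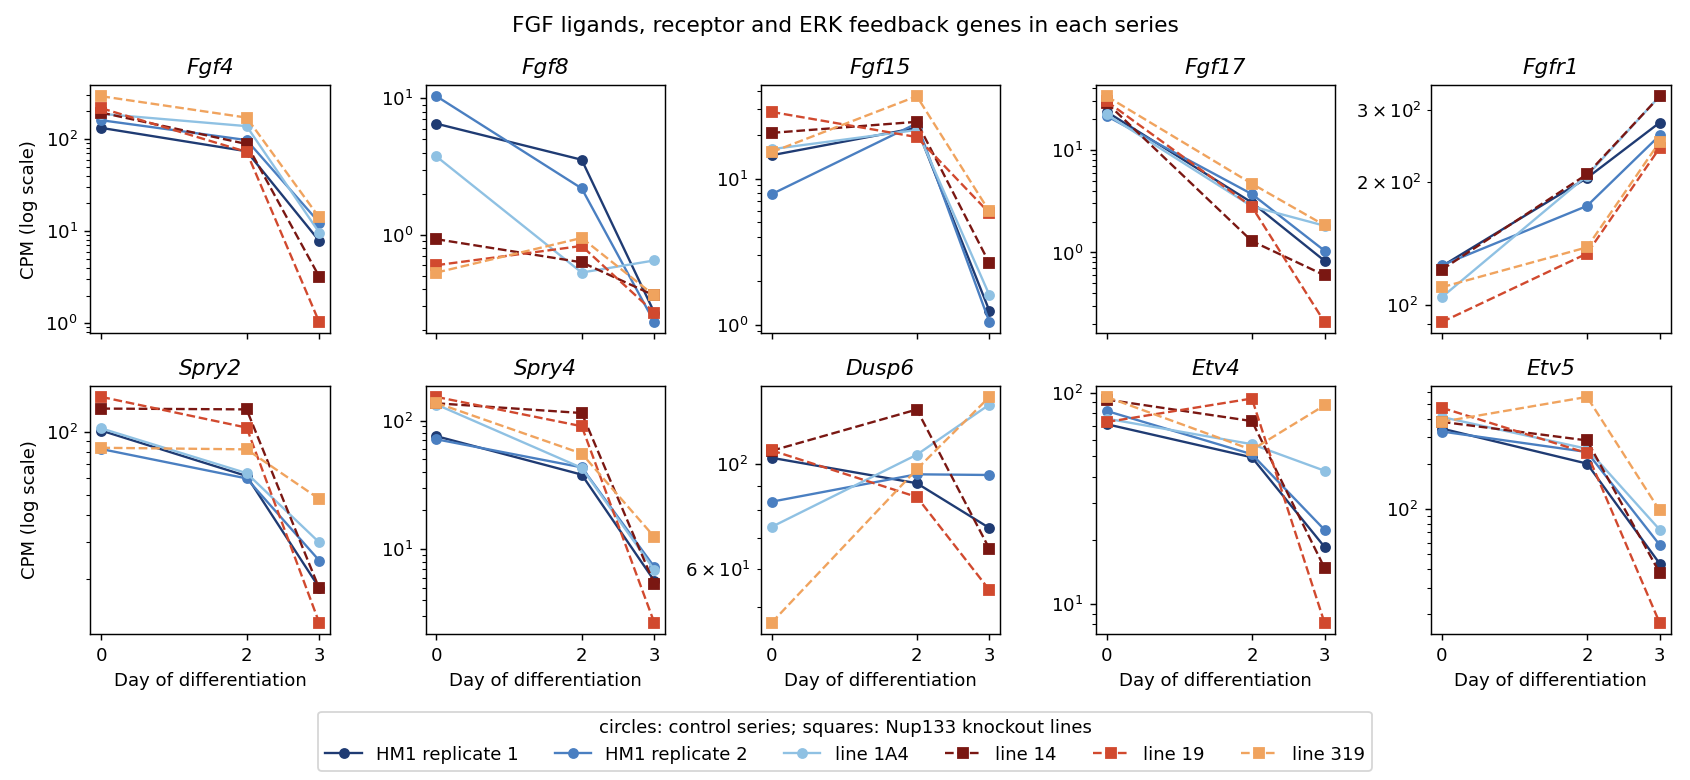
Level of each of the 10 genes (CPM, log axis, 1 panel per gene) at days 0, 2 and 3 in the 3 control series (circles, solid lines) and the 3 Nup133 knockout lines (squares, dashed lines). Each point is 1 biological sample. Fgfr1 climbs in the 6 series and Dusp6 follows no common course. Fgf8 starts at 3.75 to 10.4 CPM in controls and below 1 CPM in the knockout lines.

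**Figure D2:**
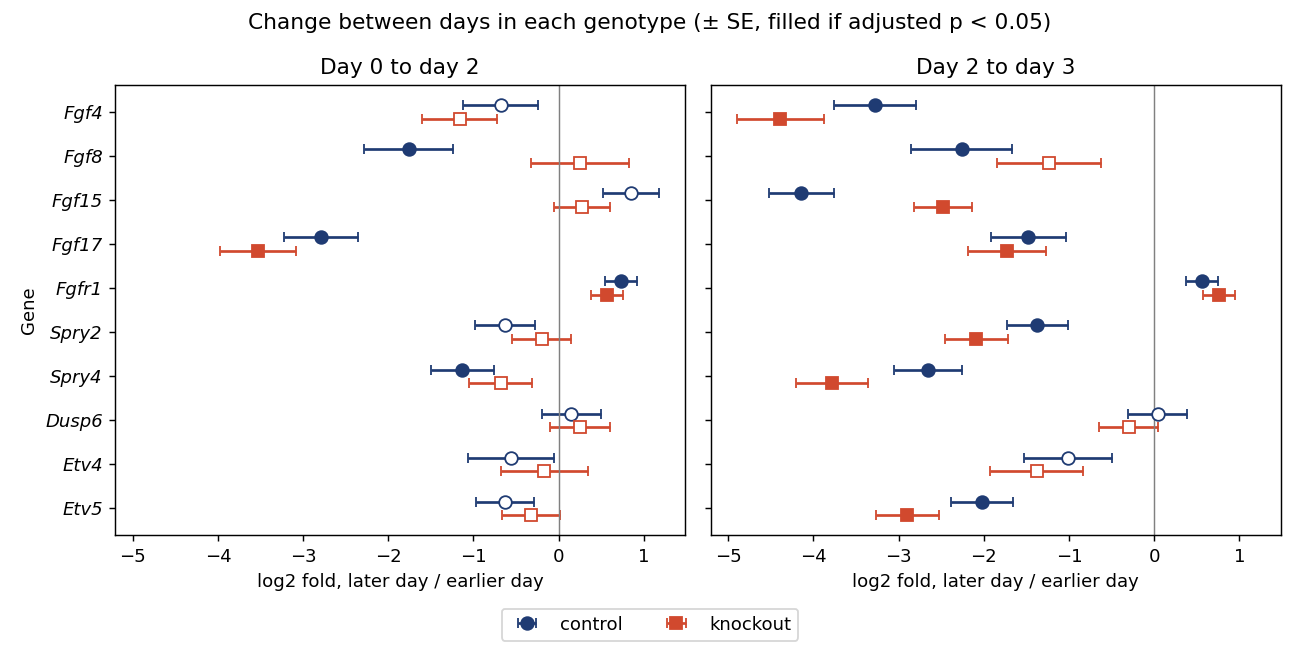
Log2 fold change between days in controls (circles) and knockout lines (squares), each with a standard error derived from the edgeR test statistic, and filled where the adjusted p was below 0.05. The day 2 to day 3 values of Fgf4, Fgf15, Fgf17, Spry2, Spry4 and Etv5 are filled on the lower side in both genotypes.

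Between the genotypes, 2 ligands passed the test, 1 at each end of the time course. Fgf8 was lower in the knockout lines at day 0 and Fgf15 was higher in them at day 3, and no other of the 10 genes passed on any day. That is 1 of 10 genes at day 0, where 0.854% of all genes passed and 0.788% were lower, none at day 2 (1.6% of all genes) and 1 at day 3, where 5.19% of all genes passed and 2.75% were higher. A single gene of 10 is too few to set against these shares. At day 2 the edgeR quasi-likelihood test gave 3 of the 10 genes and 20.4% of all genes at an unadjusted p below 0.05. DESeq2 called 1 of the 10, Spry4, and 7.36% of all genes. Both counts are near the share of all genes. The median log2 difference of the 10 genes, knockout against control, was 0.29, 0.16 and -0.16 for the 3 days in order, and that of all genes was 0.01, 0.02 and 0.02.

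**Figure D3:**
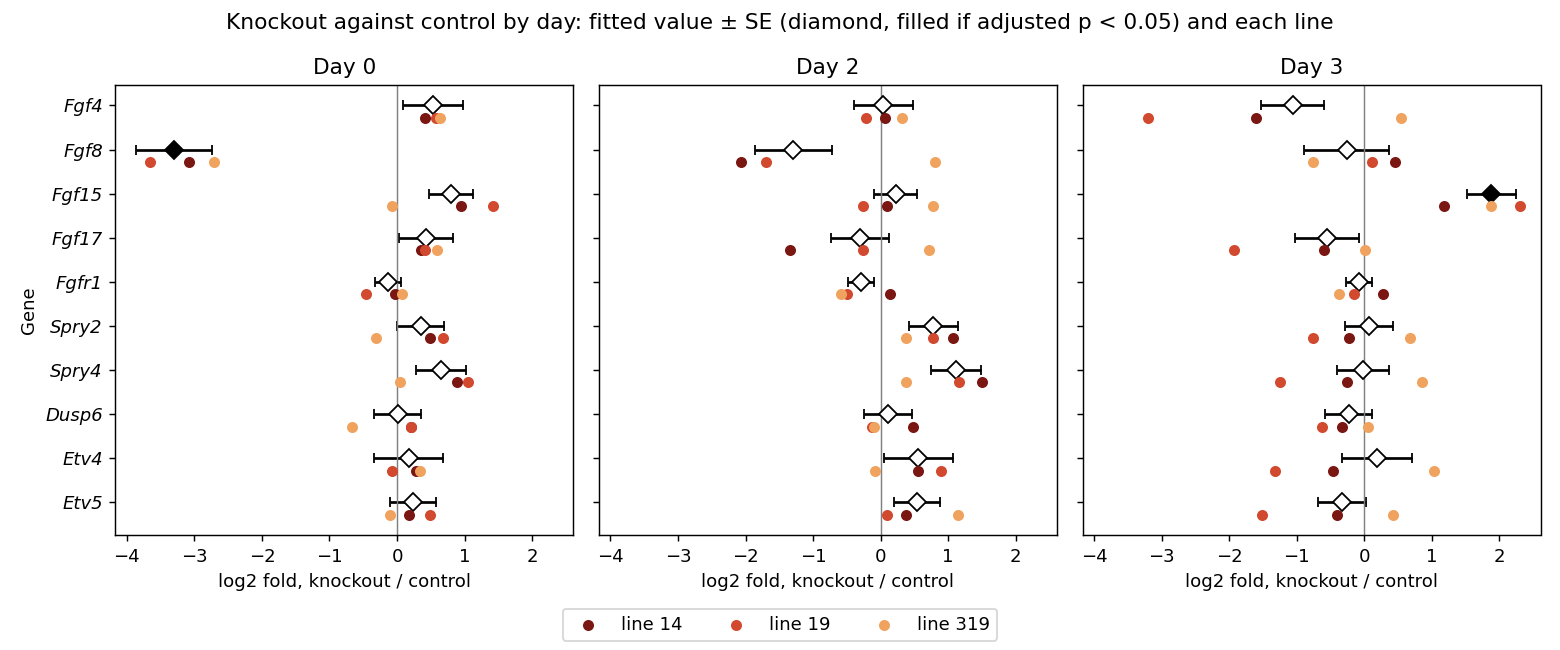
Log2 fold of knockout over control at each day, as the fitted value with its standard error (diamonds, filled where the adjusted p was below 0.05) and as each knockout line against the control of its own background (points). The filled diamonds are Fgf8 at day 0 (-3.30) and Fgf15 at day 3 (1.88). At day 3 lines 14 and 19 lie below 0 for Fgf4, Fgf17, Spry2, Spry4, Dusp6, Etv4 and Etv5, and line 319 lies above 0, at 0.01 for Fgf17 and 0.05 for Dusp6.

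Fgf8, a ligand of the primitive streak and of neural signalling centres, showed the widest separation between the genotypes at day 0. Its transcript of 5 exons (ENSMUST00000026241) lies on chromosome 19 at 45736818 to 45742873, minus strand (GRCm38). At day 0 it stood at 6.52 and 10.4 CPM in HM1 replicates 1 and 2 and at 3.75 CPM in line 1A4, from 251, 431 and 94 counts. Lines 14, 19 and 319 were at 0.926, 0.604 and 0.530 CPM, from 27, 26 and 26 counts. The groups did not overlap. The knockout mean of 0.687 ± 0.21 CPM (SD, n = 3) set against 6.88 ± 3.32 CPM in controls gave a log2 fold change of -3.30 ± 0.56 (SE), 9.86-fold lower (adjusted p = 0.0084, edgeR quasi-likelihood test). Each knockout line was lower than its own background's control, by log2 differences of -3.08, -3.66 and -2.71. In bulk RNA, fewer cells of a type and less RNA per cell cannot be told apart.

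Leaving out HM1 replicate 2, line 14 or line 19 ended this call, with log2 fold changes of -2.95, -3.47 and -3.14 and adjusted p-values of 0.12, 0.10 and 0.0518. Markers of primitive streak and mesendoderm moved with Fgf8. Their 9 genes summed to 62.5 to 127 CPM in the day 0 controls and to 13.5 to 17.8 CPM in the knockout lines, and 6 of the 8 that could be tested were lower (Wnt3, Lhx1, Mixl1, Foxa2, Cer1 and T). Cer1 and Mesp1 were at or below 3 counts in each knockout sample at day 0. The part of such cells in the Fgf8 result was not tested.

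At day 2 Fgf8 stood at 3.55, 2.19 and 0.525 CPM in HM1 replicate 1, HM1 replicate 2 and line 1A4, and at 0.627, 0.829 and 0.951 CPM in lines 14, 19 and 319. Line 1A4 was the lowest of the 6 samples, so the groups overlapped, and the difference of -1.29 ± 0.57 did not pass (adjusted p = 0.22). Within the HM1-derived series alone it was -2.04 and passed (adjusted p = 0.037, with 1.32% of all genes called), and without line 1A4 it was -1.87 (adjusted p = 0.0471). By day 3 the 6 samples lay between 0.234 and 0.651 CPM, from 7 to 25 counts, and the genotypes overlapped.

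Within the controls, Fgf8 fell by 1.76 on the log2 scale from day 0 to day 2 (adjusted p = 0.015). From day 2 to day 3 it fell by 2.26 (adjusted p = 0.012), although line 1A4 did not follow, with a change of 0.28. The first fall was -1.42 without HM1 replicate 2 (adjusted p = 0.16), and the next was -1.41 without HM1 replicate 1 (adjusted p = 0.27) and -1.95 without HM1 replicate 2 (adjusted p = 0.14). In the knockout lines the change from day 0 to day 2 was 0.25 ± 0.58 (adjusted p = 0.76). The steps of the genotypes differed by 2.01 ± 0.78, which did not pass (adjusted p = 0.58). The streak markers summed to 23.8 to 42.6 CPM in controls and 10.6 to 35 CPM in knockouts at day 2, and to 21.6 to 30.7 and 38.5 to 93.5 CPM at day 3, where Fgf8 was low in both.

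**Figure D4:**
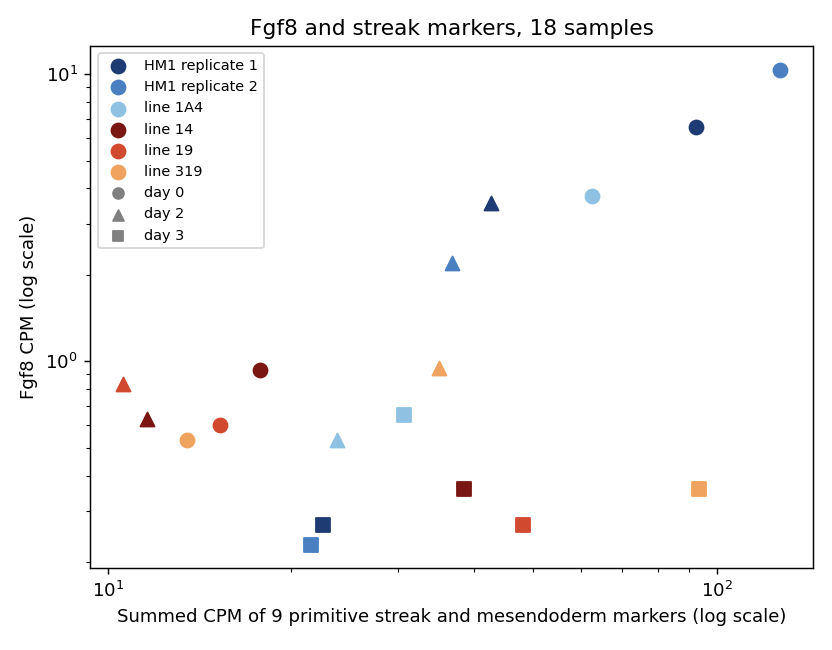
Fgf8 (CPM, log axis) against the summed CPM of 9 primitive streak and mesendoderm markers (log axis) in the 18 samples, coloured by series and shaped by day. The 3 day 0 controls lie at the upper right, and line 319 at day 3 has a marker sum of 93.5 CPM with Fgf8 at 0.362 CPM.

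Fgf15 encodes a ligand of the FGF19 type that is made in the embryonic neural tube and, later, in the gut. It lies downstream of Fgf4 on chromosome 7 (144896531 to 144900953, plus strand, 3 exons, ENSMUST00000033389), 31.3 kb beyond the end of Fgf4. At day 3 it stood at 1.24, 1.04 and 1.59 CPM in HM1 replicate 1, HM1 replicate 2 and line 1A4, from 46, 31 and 61 counts. Lines 14, 19 and 319 were at 2.63, 5.80 and 5.95 CPM, from 159, 169 and 230 counts. The 3 knockout samples lay above the 3 controls. The log2 fold change was 1.88 ± 0.36, 3.67-fold higher (adjusted p = 0.011, edgeR quasi-likelihood test), with 1.18, 2.30 and 1.87 in the 3 lines against their own controls. Leaving out HM1 replicate 1, HM1 replicate 2 or line 1A4 ended the call, with 1.91, 1.78 and 1.97 and adjusted p-values of 0.099, 0.099 and 0.056. An opposite-strand gene, Gm26793, shares 479 exon bases with Fgf15 but held 145 counts over all files, where Fgf15 held 10014.

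The difference at day 3 followed a fall that took place in both genotypes. Fgf15 had been at 7.81 to 15.9 CPM at day 0 and 21.5 to 23.9 CPM at day 2 in the controls, and from day 2 to day 3 it fell by 4.14 on the log2 scale there, 17.7-fold (adjusted p = 2.4e-06). In the knockout lines it had been at 15.2 to 28.6 CPM and 19.2 to 36.6 CPM, and then fell by 2.48, 5.59-fold (adjusted p = 9.1e-05). The falls differed by 1.66 ± 0.48, which did not pass (adjusted p = 0.36). The genotypes overlapped at day 0 (0.80 ± 0.33, adjusted p = 0.36) and at day 2 (0.22 ± 0.32, adjusted p = 0.74). The control change between days 0 and 2 was 0.85 ± 0.33, just beyond the threshold (adjusted p = 0.0531), and passed in 6 alternative analyses, among them DESeq2 (0.84, adjusted p = 0.042). Neural progenitor markers summed to 259 to 316 CPM in the day 3 controls and to 633, 940 and 250 CPM in lines 14, 19 and 319, and Pax6, Zic1 and Sox21 of the 8 were higher. Line 319 thus had the highest Fgf15 and the lowest neural sum among the knockout lines, and the part of neural cells in the Fgf15 result was not tested.

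Fgf3, the next FGF gene on the same strand before Fgf4 (chromosome 7, 144838083 to 144844436), was looked up after its values had been seen. It stood at 0.548 ± 0.131 CPM in the day 3 controls and 2.10 ± 0.609 CPM in the knockout lines, a log2 fold change of 1.95 ± 0.48 (adjusted p = 0.03). Fgf4, which lies between Fgf3 and Fgf15, had -1.06 ± 0.47 on the same day (adjusted p = 0.20). Ccnd1, beyond Fgf15, had 0.33 ± 0.17 (adjusted p = 0.26).

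Fgf4, the autocrine ligand of pluripotent cells, was the most abundant ligand of the 4 per kilobase at day 0. Its transcript of 3 exons (ENSMUST00000060336) lies on chromosome 7 at 144861386 to 144865243, plus strand. At day 0 it stood at 132, 161 and 188 CPM in HM1 replicate 1, HM1 replicate 2 and line 1A4, and at 194, 217 and 293 CPM in lines 14, 19 and 319. The groups did not overlap, but the log2 difference of 0.53 ± 0.44 did not pass (adjusted p = 0.80). At day 2 the controls held 73.9, 97.7 and 138 CPM and the knockout lines 88.6, 72.8 and 172 CPM, which overlapped (0.04 ± 0.44, adjusted p = 0.97).

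At day 3 Fgf4 was at 7.86, 12.4 and 9.68 CPM in the controls and at 3.21, 1.03 and 14.1 CPM in lines 14, 19 and 319. Lines 14 and 19 lay below each control and line 319 above each. Over the last step it fell by 3.28 on the log2 scale in controls, 9.72-fold (adjusted p = 2.0e-04), and fell by 4.39 in knockouts, 20.9-fold (adjusted p = 1.9e-05). The difference between these falls, -1.10 ± 0.64, did not pass (adjusted p = 0.59). From day 0 to day 2 the knockout lines changed by -1.16 ± 0.44, just beyond the threshold (adjusted p = 0.0503). With the days of a series paired it was -1.23 and passed (adjusted p = 0.032). DESeq2 called it too (-1.17, adjusted p = 0.034). So did edgeR with RLE size factors (-1.16, adjusted p = 0.0491) and in the HM1-derived series alone (-1.34, adjusted p = 0.02). It also passed in edgeR without line 319 (-1.34, adjusted p = 0.01) or line 1A4 (-1.22, adjusted p = 0.041). In 9 of 15 alternative settings this change stayed without a call.

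Fgf17, a ligand of the FGF8 subfamily, dropped early. It lies on chromosome 14 at 70636203 to 70642268, minus strand, with 5 exons (ENSMUST00000022697). The day 0 controls held 23.4, 21.3 and 22.1 CPM, and lines 14, 19 and 319 held 28.7, 29.6 and 33.2 CPM. The knockout samples lay above the controls with no overlap, by a log2 difference of 0.43 ± 0.40 that did not pass (adjusted p = 0.84). At day 2 the range was 2.81 to 3.70 CPM in controls and 1.29 to 4.67 CPM in knockouts, after log2 changes of -2.79 (6.92-fold, adjusted p = 1.6e-04) and -3.53 (11.5-fold, adjusted p = 3.4e-05). At day 3 it was at 0.834, 1.04 and 1.82 CPM in controls and at 0.595, 0.206 and 1.84 CPM in lines 14, 19 and 319. Those knockout values came from 36, 6 and 71 counts. The control change from day 2 to day 3, -1.48 (adjusted p = 0.026), was no longer called without HM1 replicate 1 (-1.31, adjusted p = 0.22), without HM1 replicate 2 (-1.28, adjusted p = 0.24) or without the term for genetic background (-1.36, adjusted p = 0.079). The knockout change, -1.73 (adjusted p = 0.01), was -1.26 without line 19 (adjusted p = 0.06).

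Fgfr1, the main FGF receptor of ESCs and of early neural cells, was the 1 gene of the 10 whose rise passed the test in the fit of all samples. Its transcript of 18 exons (ENSMUST00000179592) lies on chromosome 8 at 25518772 to 25575714, plus strand, and the opposite-strand gene Gm16159, with 164 shared exon bases, held 26 counts in all. Over days 0, 2 and 3, HM1 replicate 1 held 124, 205 and 279 CPM, HM1 replicate 2 held 125, 175 and 260 CPM, and line 1A4 held 104, 207 and 324 CPM. Line 14 held 122, 209 and 324 CPM, line 19 held 90.8, 134 and 242 CPM, and line 319 held 110, 138 and 251 CPM. The level was higher at each later day in the 6 series.

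The log2 rises of Fgfr1 were 0.73 ± 0.19 and 0.56 ± 0.19 in controls (adjusted p = 0.0067 and 0.042) and 0.57 ± 0.19 and 0.76 ± 0.19 in knockouts (adjusted p = 0.026 and 0.0059). The day 2 to day 3 rise in controls was 0.50 to 0.61 with each control series left out in turn and was not called then (adjusted p = 0.19 to 0.23). Nor was it called in the HM1-derived series alone (0.51, adjusted p = 0.17), with no filter on low counts (0.54, adjusted p = 0.076) or with all transcripts of a gene added up (0.54, adjusted p = 0.0533). The rise from day 0 to day 2 lost its call in controls without HM1 replicate 1 (0.74, adjusted p = 0.078) or line 1A4 (0.60, adjusted p = 0.082), and in the HM1-derived series alone (0.63, adjusted p = 0.074). In knockouts it did so without line 14 (0.43, adjusted p = 0.085), HM1 replicate 1 (0.57, adjusted p = 0.067) or HM1 replicate 2 (0.57, adjusted p = 0.056). Knockout and control overlapped on each day, with differences of -0.13, -0.29 and -0.08, each with a standard error of 0.19 (adjusted p = 0.93, 0.40 and 0.84). The median difference over the 920 genes of chromosome 8 in the same comparison was -0.23, -0.26 and -0.32. Against their own controls, Fgfr1 in line 19 had -0.46, -0.50 and -0.15 and in line 319 had 0.08, -0.58 and -0.37, the lines with low chromosome 8 medians. Line 14 had -0.03, 0.14 and 0.27.

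Fibroblasts also express Fgfr1. Collagen genes and the other fibroblast markers, 11 in all, summed to 107 to 199 CPM at day 0, 90.4 to 113 CPM at day 2 and 140 to 193 CPM at day 3 in controls. In knockouts the sums were 77.7 to 141, 72.6 to 102 and 123 to 185 CPM. Fap and Lum were at or below 3 counts in each day 0 and day 2 knockout sample. Of the 9 markers that could be tested, 4 fell and 2 rose from day 0 to day 2 in each genotype. Over the next step 3 rose and 1 fell in controls, and 4 rose and 1 fell in knockouts. The part of fibroblasts in the rise of Fgfr1 was not tested.

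Spry2 and Spry4 encode Sprouty proteins, which block the path from receptor to ERK, and both were higher in the knockout lines at day 2 without passing the test. Spry2 lies on chromosome 14 at 105891947 to 105896819, minus strand, with 2 exons (ENSMUST00000022709). At day 2 it stood at 61.5, 59.9 and 63.5 CPM in the controls and at 127, 104 and 82.3 CPM in lines 14, 19 and 319. The groups did not overlap, and the log2 difference was 0.78 ± 0.36 (adjusted p = 0.23). Spry4 has 2 exons on chromosome 18 at 38586247 to 38601415, minus strand (ENSMUST00000025295). At day 2 the controls held 38.0, 43.2 and 42.9 CPM and lines 14, 19 and 319 held 114, 90.3 and 55.4 CPM, again with no overlap (1.11 ± 0.37, 2.16-fold, adjusted p = 0.12).

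Line 319 lay nearest to the controls in both. Without it, Spry2 (0.99, adjusted p = 0.018) and Spry4 (1.42, adjusted p = 0.015) passed at day 2, in a fit where 7.35% of all genes were called. Spry4 also passed with DESeq2 (1.12, adjusted p = 0.0489) and in the HM1-derived series alone (1.33, adjusted p = 0.0492). At day 0 Spry4 stood at 75.6, 71.5 and 133 CPM in controls and 136, 153 and 137 CPM in knockouts. Line 1A4 was close to the knockout lines, and the difference of 0.65 ± 0.37 did not pass (adjusted p = 0.59). Spry2 overlapped between genotypes at day 0, at 101, 82.6 and 104 CPM against 129, 146 and 83.8 CPM (0.35 ± 0.35, adjusted p = 0.86).

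Both Sprouty genes then fell. From day 0 to day 2 Spry4 fell by 1.13 in controls (adjusted p = 0.026), a call that was lost without HM1 replicate 1 (-1.20, adjusted p = 0.13), HM1 replicate 2 (-1.33, adjusted p = 0.085) or line 1A4 (-0.86, adjusted p = 0.23), and with no filter on low counts (-1.10, adjusted p = 0.085). From day 2 to day 3 it fell by 2.65 in controls, 6.26-fold (adjusted p = 2.3e-04), and fell by 3.78 in knockouts, 13.7-fold (adjusted p = 1.2e-05). Over the same step Spry2 fell by 1.37 in controls (adjusted p = 0.013) and fell by 2.09 in knockouts (adjusted p = 7.4e-04). The Spry2 call in controls was lost with any 1 control series left out (-1.52 to -1.19, adjusted p = 0.066 to 0.16).

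At day 3 the Sprouty genes split by line. Spry2 was at 18.2, 24.4 and 29.8 CPM in controls and at 18, 12.4 and 47.9 CPM in lines 14, 19 and 319. Spry4 was at 5.68, 7.28 and 6.90 CPM in controls and at 5.37, 2.68 and 12.4 CPM in lines 14, 19 and 319. In both, lines 14 and 19 were below each control and line 319 above each. Line 14 lay close to HM1 replicate 1 in both, at 18.02 against 18.17 CPM for Spry2. The steps from day 2 to day 3 differed between genotypes by -0.72 ± 0.51 for Spry2 and -1.13 ± 0.54 for Spry4 (adjusted p = 0.65 and 0.56). Without line 319 they differed by -1.55 (adjusted p = 0.026) and -1.99 (adjusted p = 0.038), in a fit where 0.712% of all genes were called for this difference.

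Dusp6 encodes a cytoplasmic phosphatase that removes phosphate from ERK, and like Etv4 it passed no test in the fit of all samples. It lies on chromosome 10 at 99263231 to 99267488, plus strand, with 3 exons (ENSMUST00000020118). The controls held 103, 83.3 and 73.7 CPM at day 0, 91.2, 95.2 and 105 CPM at day 2, and 73.3, 94.9 and 134 CPM at day 3. Lines 14, 19 and 319 held 107, 107 and 46.3 CPM at day 0, 130, 85.3 and 97.5 CPM at day 2, and 66.3, 54.3 and 139 CPM at day 3. The groups overlapped in each comparison, and the log2 differences between genotypes were 0.01, 0.11 and -0.23, each ± 0.35. Line 319 was lowest at day 0 and highest at day 3, and line 1A4, the other blastocyst-derived line, was also higher at each later day. Without line 319 it fell by 0.84 in the knockouts from day 2 to day 3 (adjusted p = 0.021).

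Etv5 encodes an ETS factor induced by ERK and was the most abundant of the 10 genes per kilobase at day 0. It lies on chromosome 16 at 22381309 to 22439719, minus strand, with 13 exons (ENSMUST00000079601). At day 0 it stood at 343, 328 and 410 CPM in controls and at 381, 472 and 381 CPM in lines 14, 19 and 319. At day 2 the controls were at 201, 240 and 252 CPM and the knockout lines at 286, 236 and 557 CPM. Line 319 was highest at day 2, and the genotypes overlapped on both days (0.23 ± 0.34 and 0.54 ± 0.34, adjusted p = 0.93 and 0.39). At day 3 the controls had 43.5, 58.0 and 73.1 CPM and lines 14, 19 and 319 had 37.8, 17.6 and 98.2 CPM. From day 2 to day 3 it fell by 2.02 in controls, 4.06-fold (adjusted p = 8.9e-04), and fell by 2.90 in knockouts, 7.44-fold (adjusted p = 4.4e-05).

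Etv4, its close relative, lies on chromosome 11 at 101769747 to 101785371, minus strand, with 13 exons (ENSMUST00000017868). At day 0 it stood at 71.0, 82.1 and 75.4 CPM in controls and 92.9, 72.7 and 95.6 CPM in lines 14, 19 and 319. At day 2 it was at 49.5, 51.2 and 57.1 CPM and at 73.5, 93.9 and 53.7 CPM. The genotypes overlapped on both days (0.17 ± 0.51 and 0.56 ± 0.51, adjusted p = 0.98 and 0.56). At day 3 the controls held 18.6, 22.4 and 42.7 CPM and lines 14, 19 and 319 held 14.8, 8.14 and 87.2 CPM. Line 319 was the 1 series of the 6 in which Etv4 was higher at day 3 than at day 2, by 0.70 on the log2 scale. The day 2 to day 3 change was -1.01 ± 0.52 in controls and -1.38 ± 0.55 in knockouts (adjusted p = 0.19 and 0.062). Without line 319 it was -0.97 (adjusted p = 0.0099) and -2.85 (adjusted p = 4.2e-05), and DESeq2 called the knockout change (-1.40, adjusted p = 0.021). The median difference between genotypes over the 1485 genes of chromosome 11 was -0.19, -0.22 and -0.29 at days 0, 2 and 3.

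The split of the knockout lines at day 3 ran, by the sign of the difference, through 7 of the 10 genes, with line 319 close to 0 in Fgf17 and Dusp6. The share of all genes with these signs was not worked out, so the count cannot be read as particular to the 10 genes. Against the control of their own background, lines 14 and 19 had log2 differences of -1.61 and -3.20 for Fgf4, and line 319 had 0.54. For Spry4 these were -0.26 and -1.25 with 0.85 in line 319, and for Spry2 -0.23 and -0.76 with 0.68. For Etv4 they were -0.46 and -1.32 with 1.03, for Etv5 -0.41 and -1.51 with 0.42, for Dusp6 -0.33 and -0.62 with 0.05, and for Fgf17 -0.60 and -1.93 with 0.01. Line 19 was the lower of the HM1-derived lines in each of the 7 genes. With the split in view, the knockout effect in the blastocyst-derived series was tested against that in the HM1-derived series, with 6 residual degrees of freedom among the samples and a single line per genotype on the blastocyst side. None of the 10 genes passed on any day, and 0.969%, 0.547% and 0.0219% of all genes did at days 0, 2 and 3.

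At day 3 this difference was 2.74 ± 0.69 for Fgf4 (p = 0.0027 without adjustment, adjusted p = 0.22, edgeR quasi-likelihood test). It was 1.86 ± 0.46 for Etv4 (adjusted p = 0.22), 1.51 ± 0.49 for Spry4 (adjusted p = 0.35), 1.29 ± 0.54 for Etv5 (adjusted p = 0.50) and 1.17 ± 0.39 for Spry2 (adjusted p = 0.37). Fgf15, which was higher in the 3 lines, had 0.05 ± 0.73 (adjusted p = 1.0). With line 14 or line 19 left out, a single knockout line remained on the HM1 side too. The day 3 differences were then 2.11 and 1.09 for Spry4 and 2.36 and 1.47 for Etv4. These smaller fits called many genes. At day 3, 5 of the 10 genes passed without line 14 and 3 without line 19, where 18.4% and 14.5% of all genes did, and at days 0 and 2 they called 19.2% to 48.1% of all genes. Genetic background, the sex chromosomes, the labelled extra chromosomes and the kind of Nup133 allele all separate line 319 from lines 14 and 19. Line 319 is also Sox1gfp/+, which is not given for lines 14 and 19. These differences cannot be told apart, and on chromosome 8 the data did not match the label.

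Without line 319, 4 of the 10 genes passed between genotypes at day 3, and 10.8% of all genes did. They were Fgf15, higher, and Fgf4 (-2.05, adjusted p = 0.0068), Etv4 (-1.07, adjusted p = 0.038) and Etv5 (-0.93, adjusted p = 0.0464), lower. In the HM1-derived series alone 2 passed, among them Fgf4 with -2.20 (adjusted p = 0.018), where 6.06% of all genes did. The 10 pluripotency markers summed to 404, 489 and 421 CPM in HM1 replicate 1, HM1 replicate 2 and line 1A4 at day 3. They summed to 253, 134 and 513 CPM in lines 14, 19 and 319, which is the order of Fgf4 in these lines. The part of remaining pluripotent cells in the split was not tested.

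Per kilobase of transcript, Etv5 led the controls at day 0 with 90.7 ± 10.9 CPM per kb (mean and SD, n = 3). Fgf4 (53.0 ± 9.23) and Spry2 (45.9 ± 5.47) followed and overlapped within their SD, and Etv4, Dusp6, Fgfr1, Spry4 and Fgf17 each overlapped with the next from 31.8 down to 13.2 CPM per kb. Fgf15 (7.02 ± 2.38) and Fgf8 (5.89 ± 2.84) were lowest and overlapped each other. The knockout order at day 0 was alike at the top, with Etv5 at 103 ± 13.3 and Fgf4 at 77.4 ± 17.0 CPM per kb, while Fgf8 stood alone at the bottom with 0.59 ± 0.18. By day 3 Fgfr1 led with 57.1 ± 6.54 CPM per kb in controls and 54.0 ± 8.92 in knockouts. Dusp6 came next with 36.0 ± 10.9 and 30.9 ± 16.3, and overlapped with Fgfr1 in the knockouts. Etv5, Etv4 and Spry2 followed between 11.6 and 14.7 CPM per kb in controls and overlapped one another. The ligands then lay at 3.30 CPM per kb (Fgf4) or less in controls and at 2.65 CPM per kb (Fgf15) or less in knockouts. At that day Fgf15 ranked above Fgf4 in the knockouts (2.65 ± 1.04 and 2.02 ± 2.32, overlapping) and below it in the controls (0.71 ± 0.15 and 3.30 ± 0.76, not overlapping).

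Across the 18 samples, which share 6 series and 3 days, log2 levels of Fgf4, Spry2, Spry4 and Etv5 ran together, with Pearson r between 0.93 (Fgf4 and Spry2) and 0.98 (Fgf4 and Etv5). Etv4 had r of 0.86 with Fgf4 and 0.91 with Spry2. Fgfr1 ran opposite, at -0.83 with Fgf4 and -0.88 with Fgf17. Dusp6 was between 0.02 (Fgf17) and 0.40 (Etv4) with the other 9 genes, and Fgf8 reached 0.60 with Fgf17. These values describe mostly the course over days.

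Among all other tested genes, the levels most like Fgf4 over the 18 samples were those of L1td1 (r = 0.984), Pou5f1 (0.981), a core pluripotency factor, and Slc7a3 (0.979). L1td1 also came first for Etv5 (0.987), and Pou5f1 (0.976) and L1td1 (0.972) came first for Spry4. For Spry2 the nearest were Dppa4 (0.971) and Zscan10 (0.969), for Etv4 Def6 (0.913) and Pick1 (0.906), and for Fgf17 Dmtn (0.985) and Krt17 (0.979). Fgfr1 was nearest to Add1 (0.972). Fgf15 was nearest to Syt4 (0.955), and Fgf8 to Il15ra (0.919) and Tapbpl (0.918). Dusp6 had no close partner, with Sulf1 at 0.824 and Arid3b at 0.774.

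The wider pathway was described with lists of 94 further genes, of which 88 were tested. Between genotypes, 1 was lower and none higher at day 0, 2 were lower and none higher at day 2, and 6 were higher and 5 lower at day 3. Beside them, 0.854%, 1.6% and 5.19% of all genes passed, so the counts at days 0 and 2 lay near the share of all genes. The medians were -0.17, -0.21 and -0.03. The 24 genes of the cascade below the receptors held no call between genotypes on any day.

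Among ligands of other receptor tyrosine kinases, Tgfa, an EGF receptor ligand, was lower in the knockout lines at day 0 (3.20 ± 0.318 and 1.40 ± 0.277 CPM, log2 fold change -1.20 ± 0.20, adjusted p = 0.0083). Pdgfb, a PDGF receptor ligand, was lower at day 2 (-1.37 ± 0.32, adjusted p = 0.042) and at day 3 (9.70 ± 3.70 and 1.72 ± 0.341 CPM, -2.49 ± 0.33, adjusted p = 0.0017). Fgf11, an intracellular member of the FGF family, was lower at day 2 (11.6 ± 0.92 and 5.69 ± 0.468 CPM, -1.02 ± 0.23, adjusted p = 0.035). At day 3 the growth regulator Myc was higher (7.73 ± 2.05 and 31.7 ± 9.91 CPM, 2.10 ± 0.28, adjusted p = 0.0017), as were Fgf7 (2.11 ± 0.35, adjusted p = 0.0054) and Kitl, the ligand of KIT (1.15 ± 0.27, adjusted p = 0.023). Igf1 was lower (-1.44 ± 0.32, adjusted p = 0.019).

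Between days, these lists were read against the 35.2% and 35.9% of all genes that passed from day 0 to day 2 in controls and knockouts, and the 21.4% and 33.6% that passed from day 2 to day 3. Of 16 other ERK-induced genes, 11 were lower at day 2 than at day 0 in controls, among them Fos, Egr1 and Ier3, and none higher. In knockouts 9 were lower and none higher, and the median log2 changes were -1.68 and -1.20. From day 2 to day 3 this list was mixed, with 2 higher and 4 lower in controls and 3 higher and 1 lower in knockouts. The medians of that step were 0.29 and -0.21. Of 12 other feedback inhibitors tested, 2 were higher and 3 lower over that step in each genotype. Of 11 receptors and coreceptors other than Fgfr1, 7 were higher and none lower from day 2 to day 3 in controls, and 9 were higher and 1 lower in knockouts. Fgfr2 went from 27.4 ± 7.55 to 140 ± 34.9 CPM in controls and from 40.2 ± 13.6 to 229 ± 110 CPM in knockouts (adjusted p = 1.3e-05 and 7.2e-06). Flrt3, an FGFR-binding membrane protein, rose by 3.41 ± 0.29 and 5.12 ± 0.32 on the log2 scale. Of 14 other FGF ligands tested, 6 were higher and 5 lower from day 0 to day 2 in controls, and the counts were the same in knockouts. Fgf5, the ligand of the primed epiblast, then fell by 5.82 in controls and fell by 6.16 in knockouts from day 2 to day 3 (adjusted p = 9.7e-06 and 3.9e-06).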

How the data were processed

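The deposited files hold whole-number read counts per Ensembl transcript, 1 file for each of 4 technical runs of 18 biological samples. Reads were handled with bcl2fastq 2.17.1.14, STAR 2.4.0k, SAMtools and HTSeq on build mm10, per the submitters' processing notes, and the RNA was selected by its poly-A tail and made into stranded libraries, per the labels' protocols. The annotation release, counting mode and use of strand are not given in the sources used here.

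Technical files were added up (chi-square per degree of freedom between them 1.009 to 1.028). Transcripts were matched to genes through GENCODE M21 (108214 of 110379 identifiers; unmatched ones held 1.44% to 2.48% of counts), and each gene took its transcript with the highest total. The 2 HM1 replicates differed beyond sampling noise (6.66 to 11.25).

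Counts of 18 samples entered 1 edgeR 4.0.16 quasi-likelihood fit (R 4.3.3, TMM, filterByExpr, 6 groups plus a term for HM1 or blastocyst background, 11 residual degrees of freedom), with Benjamini-Hochberg adjustment over 18273 genes and a threshold of 0.05. The script was tested on simulated data. CPM values are TMM-scaled, and log2 levels use a prior count of 2. Standard errors of edgeR values were derived as the absolute log2 fold change divided by the square root of the F statistic of its test. The days of a series come from the same line, which pairs them, and 16 of 18 correlations of their deviations from the group means exceeded 0.1. The fit with a replicate block for each series is an alternative. Others were DESeq2 1.42.0, RLE size factors, no filter, no background term, each day alone, HM1-derived series alone, other transcript choices and each series left out. The fit without line 19 at day 2 and the test between backgrounds were added after seeing the data.

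The 10 genes, the pathway lists and the marker lists were chosen with earlier results of these data known. All 10 genes are described. From the pathway lists, at most 5 called genes per comparison are named, those with the smallest adjusted p and at least 1 CPM in the higher group, and the 3 most similar genes are those with the highest Pearson r. Upstream sequences come from RefSeq (GRCm38.p6), and the motif search is a description of letters.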

Additional observations from a re-analysis of the deposited data

How the results depend on the processing

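Of 1350 values over the 10 genes, 9 comparisons and up to 16 alternative settings, 1228 kept their direction and their side of the threshold, 32 lost and 34 gained a call, and 56 reversed. With 1 series left out, the number of genes called between genotypes ranged from 0 to 1 at day 0, 0 to 2 at day 2 and 0 to 4 at day 3. It ranged from 2 to 7 and 4 to 9 over the control steps, 1 to 3 and 6 to 9 over the knockout steps, and 0 to 2 for the difference in the step from day 2 to day 3. Leaving out a series took 1 sample from each group of its genotype. DESeq2 called 1 gene at day 2, and the HM1-derived series alone called 2 at day 2 and 2 at day 3. The cause of these shifts was not tested. The replicate block, which paired the days by series, added the call of Fgf4 in the knockout step from day 0 to day 2 (-1.23, adjusted p = 0.032) and changed no other call.

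In the HM1-derived series alone these log2 values changed sign: Fgf4 (-0.09) and Fgf15 (-0.07) at day 2, Fgf8 (0.36), Fgfr1 (0.06), Spry2 (-0.49) and Etv4 (-0.84) at day 3, the first knockout step of Fgf8 (-0.11), Fgf15 (-0.16) and Etv4 (0.02), the second control step of Dusp6 (-0.14), and the difference in first step of Fgfr1 (0.07) and Etv5 (-0.11). Fitted on 1 day alone they were Spry2 (-0.10) and Etv4 (-0.22) at day 3 and Dusp6 (-0.09) at day 0. Without the background term, Spry4 at day 3 was 0.05 and Dusp6 at day 0 was -0.00, as it was with no filter. None of these had passed the test.

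With each series left out in turn, further values crossed 0. Between genotypes these were Fgfr1 (-0.25 to 0.00), Dusp6 (-0.19 to 0.35) and Etv4 (-0.11 to 0.36) at day 0, and Fgf4 (-0.21 to 0.21), Fgf17 (-0.76 to 0.06) and Dusp6 (-0.12 to 0.23) at day 2. At day 3 they were Fgf8 (-0.67 to 0.41), Fgfr1 (-0.24 to 0.06), Spry2 (-0.57 to 0.39), Spry4 (-0.57 to 0.34), Dusp6 (-0.66 to 0.01), Etv4 (-1.07 to 0.66) and Etv5 (-0.93 to 0.05). Over the first knockout step they were Fgf8 (-0.11 to 0.69), Fgf15 (-0.16 to 0.74), Spry2 (-0.32 to 0.01), Etv4 (-0.50 to 0.02) and Etv5 (-0.70 to 0.08). Dusp6 crossed 0 in both control steps (-0.00 to 0.34 and -0.15 to 0.19) and the second knockout step (-0.84 to 0.05). The differences in step did so for Dusp6 (-0.14 to 0.42 and -0.87 to 0.01), Fgf17 (-0.68 to 0.20) and Etv4 (-1.88 to 0.42) over the second step and Etv5 (-0.07 to 0.70) over the first. Of 210 values of the test between backgrounds, 22 gained a call, and 3 reversed: Dusp6 at day 2 (0.03) and Fgf15 at day 3 (-0.11 and -0.44). Fgf8 is the gene that depth limits in the most samples, with 7 to 33 counts per sample in the knockout lines and at day 3. The lowest single count was 6, for Fgf17 in line 19 at day 3.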
